A study of Canis lupus familiaris with 6 samples.

Results

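Interferons are secreted proteins that cells release on sensing viral nucleic acid, and neighbouring cells read them through paired receptor chains. Type I interferons (the alpha family, IFNB1, IFNK and others) bind IFNAR1 with IFNAR2, the type II interferon IFNG binds IFNGR1 with IFNGR2, and type III interferons (interferon lambda) bind IFNLR1 with IL10RB. Each receptor signals through Janus kinases to STAT transcription factors, and the type III receptor is known to be found mainly on epithelial cells. The genes described here were IFNK, IFNA7, IFNB1, IFNG, IFNLR1, IFNGR1, IFNGR2, IFNAR1 and IFNAR2. They were chosen by name, as all non-control probes whose gene name in the array's own annotation was 1 of these 9 symbols. Of the 9 genes, 6 had a probe of that name, out of 34378 distinct gene names on the array, and these 6 genes had 9 probes. IFNGR2, IFNAR1 and IFNAR2 were not analysed here.

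The arrays were made from MDCK cells, a line of dog kidney tubule epithelium. All samples were β-cat ΔN/RasV12 cells, built from the line MDCK-pTR GFP-RasV12. They carry GFP-tagged RasV12, an active Ras oncoprotein that tetracycline switches on, and mCherry-β-catenin Δ131, a stabilised β-catenin without its N-terminus, expressed from the constitutive EF1 promoter after drug selection. Whether each line was 1 clone is not given in the sources used here. In single culture they were grown alone (3 arrays). In mix culture they were grown among MDCK mCherry-β-catenin Δ131 cells (β-cat ΔN cells) at 10 surrounding cells for each RasV12 cell (3 arrays). Both groups lay on collagen and received tetracycline for 24 h, after which total RNA of the sorted GFP-positive cells was hybridised in 1 colour. The transcripts of the surrounding cells were therefore not measured on their own. The sources used here give no purity of the sort, so any carry-over of surrounding cells into mix culture is unknown. In such bulk RNA fewer cells that express a gene and less RNA per cell cannot be told apart.

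On each array, 61.11% to 65.66% of the spots stood well above background. Replicate 1 of each group lay on slide 1 and the other 4 arrays on slide 2, and 47.2% of the 26623 probes tested differed between slides in limma. Values with the slide as a block and within each slide therefore stand beside the results. Of 8 markers of kidney tubule epithelium with a probe, 8 were well above background on all 6 arrays and 0 were called between the groups, although CDH1 (E-cadherin) was lower with the slide block (log2 change -0.47, limma adjusted p = 0.0444), a call that was lost with any 1 array left out (limma adjusted p up to 0.18). Of 12 leukocyte markers with a probe, 9 stood well above background somewhere among the 6 arrays, and the defining markers PTPRC, CD3D and MS4A1 did so on none. The 7 that were tested had 0 calls in either fit, as had the 3 fibroblast and 3 endothelial markers tested.

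The probe sequences come first, since they bear on which interferon each signal can be read as. All are 60 bases long and read 5′ to 3′. The probes of IFNK and IFNLR1 are shown because these genes differed most between the cultures.

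IFNK, probe A_11_P0000026184, chr11:45642190-45642249, plus strand: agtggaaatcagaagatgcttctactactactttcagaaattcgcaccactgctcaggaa
IFNLR1, probe A_11_P103371, chr2:75440264-75442044, plus strand: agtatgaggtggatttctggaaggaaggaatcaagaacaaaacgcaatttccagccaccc

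The probes of IFNB1 and IFNG, the prototype type I and type II interferons, are shown because they were not well above background on any array.

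IFNB1, probe A_11_P0000026175, chr11:40668332-40668391, minus strand: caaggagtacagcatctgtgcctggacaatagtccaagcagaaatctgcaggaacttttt
IFNG, probe A_11_P0000019892, chr10:10407624-10410002, minus strand: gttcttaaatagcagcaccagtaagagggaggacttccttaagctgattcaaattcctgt

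The next 4 probes belong to the interferon alpha family and are shown because the IFNA7 probes disagreed. Capitals mark the longest run of bases shared with IFNA7 probe 1 or, in that probe itself, with the probe of LOC100685213, which the array describes as interferon alpha-1/2-like.

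IFNA7 probe 1, A_11_P050341, chr11:40746004-40746062, minus strand: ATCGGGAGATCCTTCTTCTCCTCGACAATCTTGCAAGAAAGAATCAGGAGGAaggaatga
LOC100685213, probe A_11_P052791, chr11:40863091-40863175, plus strand: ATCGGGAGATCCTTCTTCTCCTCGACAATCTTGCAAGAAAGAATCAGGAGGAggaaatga
IFNA6, probe A_11_P051216, chr11:40726586-40726645, minus strand: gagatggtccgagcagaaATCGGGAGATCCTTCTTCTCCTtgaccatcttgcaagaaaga
IFNA7 probe 2, A_11_P101152, chr11:40746100-40746159, minus strand: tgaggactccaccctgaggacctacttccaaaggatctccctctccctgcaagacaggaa

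Coordinates are those of the array design, on CanFam3.1. IFNK, IFNA7, IFNA6, IFNB1 and LOC100685213 all lie on chromosome 11. The IFNG and IFNLR1 probes cover 2379 and 1781 bases of the genome with 60 bases of sequence, so each crosses at least 1 exon junction and matches spliced RNA. The first IFNA7 probe shared a run of 52 bases with the LOC100685213 probe and a run of 22 bases with the IFNA6 probe. The second IFNA7 probe shared no run of 20 bases with any other probe on the array, on either strand.

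**Figure D1:**
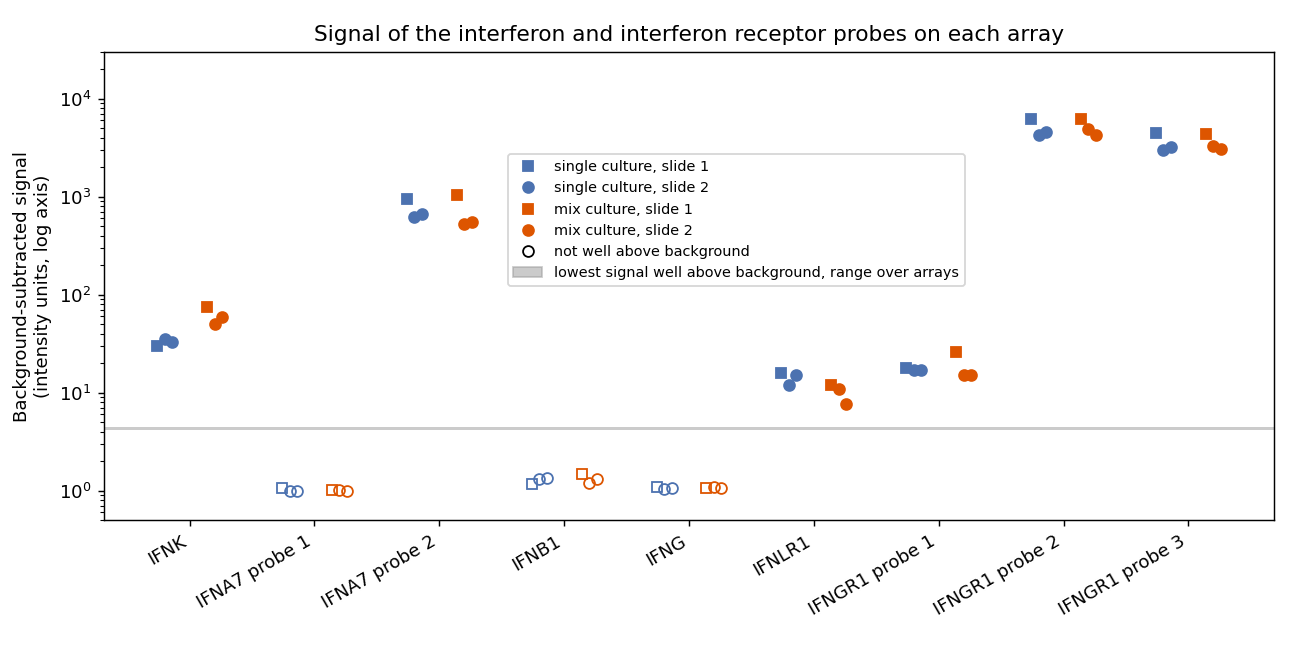
Background-subtracted signal in intensity units (log axis) of the 9 interferon and interferon receptor probes on each of the 6 arrays, blue for single culture and orange for mix culture, squares for slide 1 and circles for slide 2. Open symbols were not well above background, and the grey band is the range over arrays of the lowest signal that was (4.19 to 4.48). The 3 mix culture points of IFNK, from 50.01 to 74.69, lie above its 3 single culture points, from 29.54 to 35.45.

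Among the interferons themselves, IFNK was the one whose signal separated the cultures. IFNK encodes interferon kappa, a type I interferon known chiefly from skin keratinocytes. Its signal was 29.54, 35.45 and 32.48 intensity units in single culture replicates 1 to 3, and 74.69, 50.01 and 58.41 units in mix culture replicates 1 to 3. Every mix culture array was higher than every single culture array, and the highest was the mix culture array of slide 1. After each array's 75th percentile was subtracted, the mean log2 signal of single culture was -2.48 ± 0.29 and that of mix culture was -1.65 ± 0.20 (SD over 3 arrays each), and the groups still did not overlap. The log2 change was 0.83 (SE 0.20), a fold of 1.78 with a 95% interval of 1.27 to 2.47, and limma did not call it over all probes (unadjusted p = 0.0046, adjusted p = 0.192). With the slide as a block the same change was called (SE 0.16, limma adjusted p = 0.0197). The difference was 1.16 on slide 1 and 0.66 on slide 2 on the log2 scale, so the direction was the same on both slides.

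The call for IFNK with the slide block was lost in limma without replicate 1 or 3 of either group (adjusted p up to 0.0888 without a replicate 1), while its log2 change stayed between 0.66 and 0.99. With normexp background correction of the median spot signal (offset 50 units) and quantile normalization in place of the scanner's correction and the percentile scaling, the log2 change of IFNK was 0.38. The offset is added before the log2 and shrinks the changes of dim probes toward 0.

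IFNB1 encodes interferon beta, which most cell types make first on sensing viral RNA. Its signal was 1.164, 1.308 and 1.336 units in single culture and 1.491, 1.205 and 1.316 units in mix culture. IFNG encodes interferon gamma, known as a product of T cells and natural killer cells. Its signal lay between 1.034 and 1.083 units over the 6 arrays. Neither probe was well above background on any array, where the lowest signal that was lay between 4.19 and 4.48 units, and no fold is given for them. A transcript below that level would not have been seen here.

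IFNA7 belongs to the interferon alpha family, whose genes are close copies of each other. The second IFNA7 probe was well above background on all 6 arrays, with 957.4, 613.7 and 665.5 units in single culture and 1051, 521 and 556.2 units in mix culture. In both groups the array of slide 1 was the highest, and the groups overlapped. Its log2 change was -0.19 (SE 0.21, 95% interval -0.68 to 0.31, limma adjusted p = 0.923), and it was not called with the slide block either (limma adjusted p = 0.343). It was the only 1 of the 6 member probes tested that differed between slides in limma (slide 2 minus slide 1, -0.41, adjusted p = 0.0268). The first IFNA7 probe, assigned to the same transcript by the design, lay between 0.9862 and 1.049 units and was not well above background on any array. The LOC100685213 probe, which shares the 52-base run, lay between 1.041 and 1.288 units, and the IFNA6 probe between 0.8488 and 1.378 units, and neither was well above background on any array. The probes of the alpha family that share sequence were thus all at background. The bright probe starts at base 407 of the transcript and the first at base 504. Probes were compared only with each other, so the lack of a shared run does not tell which transcripts the bright probe matches. Since the first probe of the same transcript was at background, the signal of the bright probe cannot be read as IFNA7 transcript from these arrays alone.

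Searching the array's descriptions, after the values were seen, found other interferons under other names. A probe described as interferon epsilon, a type I interferon of mucosal epithelium, was well above background on all 6 arrays, at 21.95 to 26.37 units in single culture and 22.27 to 34.12 units in mix culture, and its log2 change was 0.20 (SE 0.19, limma adjusted p = 0.889). For interferon lambda, the ligand of IFNLR1, a probe described as interferon lambda 1 had 10.61 to 10.92 units in single culture and 7.606 to 12.15 units in mix culture (log2 change -0.25, limma adjusted p = 0.831). The probe named IL29L had 190 to 368.7 and 258.8 to 357 units (log2 change 0.08, limma adjusted p = 0.984). All 3 overlapped between the groups.

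The receptor chains measured were those of the type III and type II receptors. IFNLR1 encodes the chain that is particular to the type III receptor. Its signal was 15.81, 11.91 and 15.03 units in single culture and 11.98, 10.86 and 7.585 units in mix culture. In these units the mix culture array of slide 1 lay within the single culture range, and the other mix culture arrays lay below it. After each array was scaled to its 75th percentile the groups no longer overlapped, with a mean log2 signal of -3.68 ± 0.15 for single culture and -4.25 ± 0.18 for mix culture (SD over 3 arrays each). The log2 change was -0.57 (SE 0.17), a fold of 0.672 with a 95% interval of 0.511 to 0.885, and limma did not call it over all probes (unadjusted p = 0.0111, adjusted p = 0.31). With the slide block it was called as lower (SE 0.13, limma adjusted p = 0.0427), and the difference was alike on both slides, at -0.58 on slide 1 and -0.57 on slide 2. That call was lost in limma without replicate 1 or 3 of either group. Under the normexp setting the change was -0.09.

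IFNGR1 encodes the chain of the type II receptor that binds interferon gamma, and it had 3 probes on chromosome 1, minus strand. Probe 2 (A_11_P116426, chr1:29644727-29644786) started at base 4343 of its transcript and had 6168, 4255 and 4526 units in single culture and 6242, 4925 and 4251 units in mix culture. Probe 3 (A_11_P150390, chr1:29644621-29644679), starting at base 4450, had 4466, 2987 and 3226 units in single culture and 4343, 3272 and 3048 units in mix culture. On both, the arrays of slide 1 were the highest in each group and the cultures overlapped. Their log2 changes were -0.02 (95% interval -0.36 to 0.33, limma adjusted p = 0.989) and -0.06 (-0.42 to 0.29, limma adjusted p = 0.973). Changes beyond 1.25-fold higher or 0.749-fold lower lay outside these intervals.

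Probe 1 of IFNGR1 (A_11_P0000021775, chr1:29655043-29655102) started at base 591 of the same transcript. It had 17.74, 16.84 and 17.05 units in single culture and 26.26, 15.13 and 14.99 units in mix culture. The mix culture array of slide 1 was the highest of the 6 and the other mix culture arrays were the lowest. Its log2 change was 0.01 (95% interval -0.40 to 0.42, limma adjusted p = 0.996), made of 0.39 on slide 1 and -0.18 on slide 2.

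Over the 6 member probes tested, which were those well above background on all 6 arrays, limma called 0, against 0.883% of all probes tested, and 2 had an unadjusted p under 0.05, against 8.71%. The groups did not overlap for 2 of the 6, IFNK and IFNLR1, against 16.5% of all probes. With the slide block 1 was called higher and 1 lower, against 3.98% and 3.22% of all probes. The remaining 3 member probes stayed at background throughout. Of the 6 tested, 4 had a log2 change below 0.

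**Figure D2:**
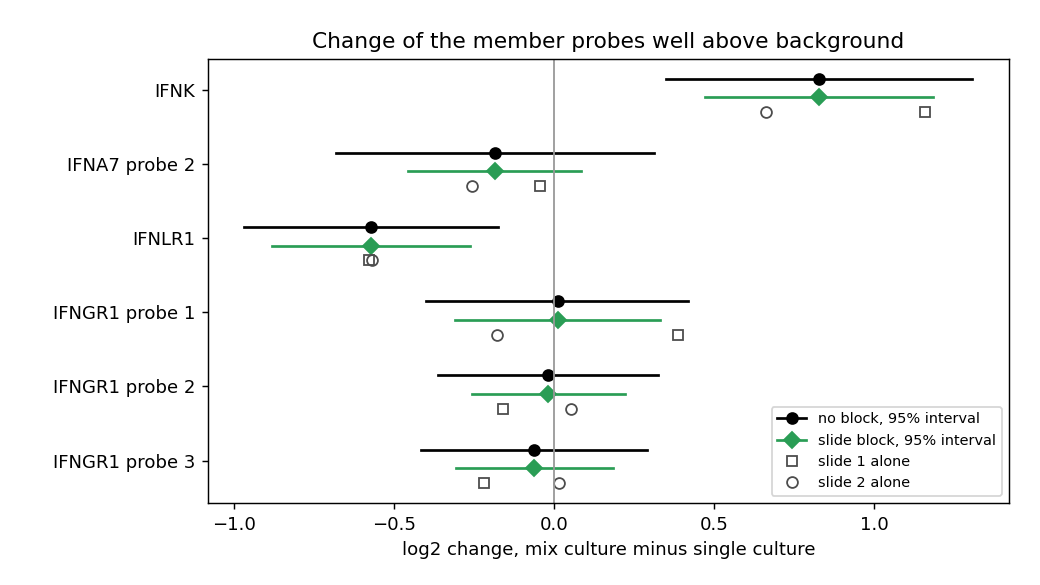
log2 change, mix culture minus single culture, of the 6 member probes well above background. Black circles with bars are limma estimates with 95% intervals without a block, green diamonds with bars those with the slide block, and open symbols the difference within slide 1 (squares) and slide 2 (circles). The intervals are not adjusted for the number of probes tested. Those of IFNK and IFNLR1 do not reach 0 in either fit, although limma without a block called neither (adjusted p = 0.192 and 0.31). Those of IFNA7 and IFNGR1 hold 0.

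By the rule of likeness, the 5 symbols whose profile over the 6 arrays was nearest to that of IFNK were GOLGA1, ANKS4B, PML, TOB1 and IGF2. Likeness was the root mean square difference between normalised log2 signals centred within each slide, and it ran from 0.0516 for GOLGA1 to 0.0959 for IGF2. GOLGA1, a golgin of the trans-Golgi, had 18.83, 21.24 and 18.99 units in single culture and 49.41, 28.92 and 31.29 units in mix culture. PML, which organises nuclear bodies, had 10.8, 18.79 and 18.71 units in single culture and 28.54, 32.37 and 32.74 units in mix culture. The log2 changes of the 5 lay between 0.77 (TOB1) and 0.93 (PML). Their nearness to the change of IFNK follows from the choice by likeness and is no further evidence. Without a block limma called none of the 5 (adjusted p from 0.192 for GOLGA1 to 0.757 for TOB1). With the slide block it called all but TOB1 (limma adjusted p = 0.0664), whose groups overlapped.

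Downstream of the receptors, the transcripts of the signalling machinery mostly stayed within the spread between arrays. Of 7 kinases and transcription factors that act at the receptors, 5 had a probe, and limma called 0 of them without a block and 1, STAT2, with the slide block, where 4.08% of all symbols were called higher. STAT2, a subunit of the ISGF3 complex that type I and III receptors activate, had 51.94, 55.87 and 57 units in single culture and 92.29, 93.75 and 87.31 units in mix culture. Its log2 change was 0.67 (SE 0.20, limma adjusted p = 0.323 without and 0.00695 with the slide block), and the groups did not overlap. The kinases JAK1 and JAK2, which sit on these receptors, had log2 changes of -0.23 (limma adjusted p = 0.946) and 0.27 (limma adjusted p = 0.917). IRF9, the DNA-binding subunit of ISGF3, had -0.13 (limma adjusted p = 0.936). The list's median was 0.12, and that of all 9876 symbols tested was -0.05.

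Among 8 inhibitors of the receptors that were tested, limma called 1, USP18, as higher and 0 as lower, against 0.871% of all symbols called higher. USP18 removes ISG15 from proteins and dampens signalling at IFNAR2. It had 25.49, 29.31 and 20.79 units in single culture and 99.43, 79.49 and 64.3 units in mix culture, and its log2 change was 1.61 (SE 0.19), which limma called (adjusted p = 0.0124). All mix culture arrays were higher than all single culture arrays, and the difference was 1.79 on slide 1 and 1.53 on slide 2. SOCS1, which binds and blocks Janus kinases, had -0.19 (limma adjusted p = 0.908). With the slide block PIAS3, an inhibitor of STAT3, was also called, as lower (log2 change -0.56, limma adjusted p = 0.0213), where 3.44% of all symbols were called lower. With the slide block and 1 array left out, that call held only without single culture replicate 2 (limma adjusted p otherwise up to 0.102). The list's median was -0.02.

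Upstream of the interferon genes, 16 tested genes sense nucleic acid or carry the signal to interferon promoters. Without a block limma called 4 of them higher and 0 lower, against 0.871% of all symbols called higher. With the slide block it called 6 higher, against 4.08%. By direction alone 10 were higher and 6 lower, with a list median of 0.32. The RNA sensors DDX58 (RIG-I) and IFIH1 (MDA5) rose by log2 changes of 2.22 (SE 0.24, limma adjusted p = 0.00895) and 1.44 (SE 0.14, limma adjusted p = 0.0055). DHX58 (LGP2), which modulates both, had 1.847, 7.206 and 3.669 units in single culture and 35.74, 57.24 and 43.13 units in mix culture. Only 1 of its 3 single culture arrays was well above background, and it entered the test through mix culture. With the single culture signals that were not well above background set to the lowest signal that was on their array, it was at least 8.38-fold higher in mix culture. limma called it (adjusted p = 0.045), and the call was lost under quantile normalization (limma adjusted p = 0.058). IRF3, the factor that these sensors switch on by phosphorylation, had a log2 change of -0.04 (limma adjusted p = 0.988). The called genes of this list and of the output lists were known from earlier results of the same arrays, so they are no independent evidence here.

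The genes that interferons switch on were mostly higher in mix culture. All 20 tested output genes of type I and III interferons were higher in mix culture, with a median of 2.34. Without a block limma called 15 higher and 0 lower, against 0.871% of all symbols called higher. With the slide block it called 19 higher, against 4.08%. The largest log2 changes were those of the antiviral proteins MX2 (4.68, SE 0.32, limma adjusted p = 0.00142), IFIT1 (3.91, SE 0.19, limma adjusted p = 0.000614) and MX1 (3.17, SE 0.21, limma adjusted p = 0.00142). Among 9 tested genes that mainly answer interferon gamma, the list median was 1.33, and limma called 3 as higher and 0 as lower. Once slide was a block, 6 were called, all as higher. By direction alone 7 were higher and 2 lower. The 2 lower genes were CXCL10 (log2 change -0.18) and WARS (-0.15), and neither was called in either fit. The 3 called without a block were PSMB8 (2.39, SE 0.32, limma adjusted p = 0.0214) and PSMB9 (1.67, SE 0.21, limma adjusted p = 0.0164), subunits of the immunoproteasome, and CIITA (2.35, SE 0.25, limma adjusted p = 0.00895), the activator of MHC class II genes. The IFNG probe was at background in both cultures. IFNG of the surrounding cells was not measured on its own, and what raised CIITA was not tested.

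Together with 2 class II cytokine receptors and 1 interleukin 10 family ligand, 0 of which were called, these lists held 61 tested genes. Of these 23 were called, where 86 of all 9876 symbols tested were called higher and 7 lower. The list count was 8 without single culture replicate 3, 11 without mix culture replicate 2 and 7 without mix culture replicate 3. With the slide block the list count was 34, and 28 to 32 with any 1 array left out, where the 2 cases without a replicate 1 are the same comparison. The slide block called 403 of all symbols higher and 340 lower. MX2, IFIT1 and MX1 kept their call with any 1 array left out, while USP18, DDX58, IFIH1, DHX58, PSMB8, PSMB9 and CIITA each lost it in at least 2 of the 6 cases without a block (limma adjusted p up to 0.209, for DHX58). Under the normexp setting the log2 changes were 1.87 for IFIT1, 0.73 for DHX58, 0.70 for PSMB8 and 0.69 for CIITA, and DHX58 and PSMB8 were no longer called (limma adjusted p = 0.122 and 0.0817). The offset of that setting shrinks the changes of such dim probes toward 0. The bright probe of MX1 kept a log2 change of 3.14.

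**Figure D3:**
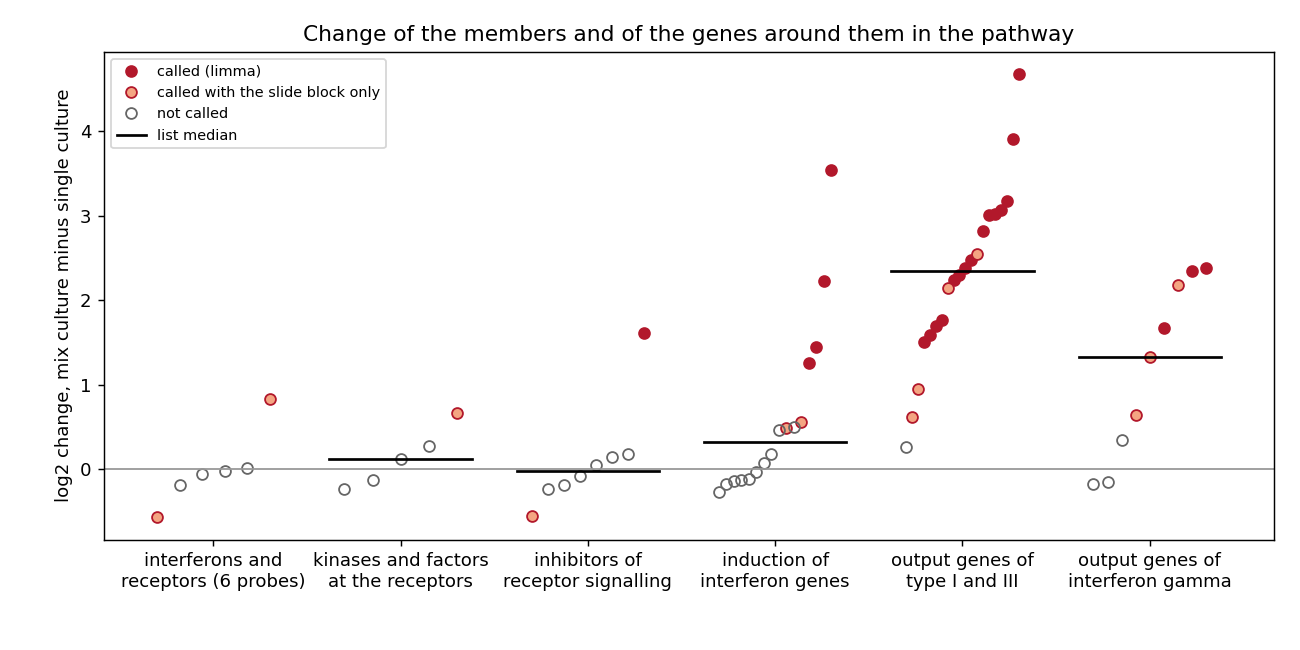
log2 change, mix culture minus single culture, of the 6 member probes and of the tested genes of 5 pathway lists, 1 point per probe or gene. Filled red points were called by limma, pale points with the slide block only, open points in neither, and black lines are list medians. The 6 member probes lie between -0.57 and 0.83, while the medians of the output lists are 2.34 for type I and III interferons and 1.33 for interferon gamma.

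The members of the wider family were mostly dim or level. Of 6 other class II cytokine receptors with a probe, IL10RA and F3 were tested and 0 were called (median log2 change -0.11). Of 5 interleukin 10 family ligands with a probe, IL10 alone was tested, and it was not called (log2 change -0.44, limma adjusted p = 0.953). Among them, IL19, IL20, IL22 and IL24 were at background on all 6 arrays.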

How the data were processed

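Gene expression was measured on 6 one-colour Agilent canine arrays, 3 of single and 3 of mix culture, grouped by sample title. The authors deposited a scanner file per array, with the linear intensity of each spot. According to the headers, background was removed within each array by Agilent Feature Extraction (version 11.5.1.1 on slide 1, scanned at 3 µm, and version 12.1.1.1 on slide 2, at 5 µm). They also deposited a table of log2 values without stating its steps, used as an alternative. In it, the columns of mix culture replicates 2 and 3 followed each other's scanner file (correlations of 0.999 and 0.993), which leaves group means as they are, but the replicate labels of mix culture 2 and 3 may be exchanged in 1 of the sources.

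Here background-subtracted signals were turned to log2, control spots and 5 to 9 outlier spots per array were dropped (no spot was saturated), replicate spots were averaged and arrays were scaled to their own 75th percentile. Each member probe was printed once per array. Probes well above background on all 3 arrays of at least 1 group were tested with limma 3.58.1 (R 4.3.3, two-sided, lmFit with eBayes, Benjamini-Hochberg over 26623 probes) and called at an adjusted p under 0.05. The code was tested on simulated data. Folds are mix over single culture. Nothing says that replicates were separate cultures, so p-values measure the spread between these samples, which may be technical, and 6 arrays limit the precision.

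Lists used the brightest tested probe of each symbol. The members and lists were chosen with earlier results of these data known. The rule for named genes took all member probes, the 3 largest called changes of each list, a fixed set of signalling genes (some of which are not reported here), and the 5 profiles nearest to IFNK. Genes called with the slide block alone were named after their values were seen. The replicate block took the replicate numbers to pair the samples. Deviations from the group means correlated between single and mix culture arrays of the same number (0.801, 0.53 and 0.572 for numbers 1, 2 and 3), but the arrays of number 1 also share slide 1. On slide 2 arrays of different numbers correlated more (0.61 and 0.632), so these correlations do not show that the numbers pair samples beyond their shared slide. Alternatives were a slide or replicate block, quantile normalization, normexp, other filters, the methods' test, each slide alone and leaving out each array. With the slide block, leaving out either replicate 1 gives the same comparison as slide 2 alone, so these are not separate checks. Promoter and protein sequences were not used here.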

Additional observations from a re-analysis of the deposited data

How the results depend on the processing

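The count of member probes called was 0 without a block, 2 once slide was a block, and also 2 with the authors' table of log2 values (IFNK, limma adjusted p = 0.0118, and IFNLR1, 0.0278). Calls were far more common with the authors' values, where of all 9876 symbols 731 were called higher and 803 lower. With the scanner signals and no block, 86 were called higher and 7 lower. The 2 member calls with the authors' values thus came in a setting that called many symbols. The replicate block pairs the same-numbered arrays and rests on replicate labels of mix culture 2 and 3 that may be exchanged. With it the member count was 1, since IFNK was called (limma adjusted p = 0.0336) and IFNLR1 was not (0.0762). Over the pathway lists that block gave 32 calls of 61 genes. Leaving out 1 array gave 0 member calls in every case without a block and 0 to 2 with the slide block, an alternative added after the data were seen, as was the slide block without the filter on dim probes, which gave 0. Pathway calls ranged from 7 to 23 with 1 array left out and no block, and from 28 to 32 with the slide block. The count of member calls was also 0 under quantile normalization, normexp, both other filters, the methods' test and slide 2 alone. IFNK, IFNLR1 and the bright IFNA7 probe kept their direction in every setting run. The changes of the IFNGR1 probes, all near 0, did not: probe 1 came to 0 under normexp and -0.18 on slide 2 alone, probe 2 to 0.078 under quantile normalization, 0.14 under normexp, 0.073 in the authors' table and 0.051 on slide 2 alone, and probe 3 to 0.032, 0.016, 0.03 and 0.016 in the same order. With 1 array left out and no block, probe 1 ranged from -0.109 to 0.107, probe 2 from -0.065 to 0.051 and probe 3 from -0.12 to 0.02; with the slide block the ranges were -0.179 to 0.108, -0.053 to 0.051 and -0.104 to 0.016. The causes were not tested. The promoter motif search planned for the members was not run. Signals near background, as for IFNLR1 and IFNGR1 probe 1, limit what a change there can show.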
